A study of Mus musculus with 15 samples.

Results

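The genes examined here handle iron, break down heme or bind metal: the transferrin receptor Tfrc, plasma transferrin Trf, the metal transporters Slc39a14 and Slc11a1, the ferritin heavy chain Fth1, the iron exporter Slc40a1, the iron sensor Ireb2, heme oxygenase Hmox1 and the metallothioneins Mt1 and Mt2. They were read in whole hearts of mice 48 h after abdominal surgery, from every probe set on the array that is paired with exactly 1 of these 10 symbols. The rule gave 18 of the 22690 probe sets, and 9 of the 10 genes. Trf was not measured under it, because its only probe set is shared with the neighbouring annotation Srprb. Tfrc had 6 probe sets, of which 3 are control probe sets for the 5', middle and 3' parts of its transcript. Mt1, Fth1, Slc40a1 and Slc39a14 had 2 each, and Mt2, Hmox1, Slc11a1 and Ireb2 had 1 each.

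The 15 arrays, 3 in each of 5 groups, held total RNA labelled with biotin. Sepsis followed CLP surgery (caecal ligation and perforation), which ties and pierces the blind pouch of the large bowel and lets bacteria leak into the abdomen, while in sham surgery the caecum was only handled. The C57/BL6 wild-type hearts were CLP Max Dep, CLP Min Dep and sham hearts, and what quantity Max Dep and Min Dep rank is not given in the labels. The iNOS KO hearts, from congenic B6.129P2-Nos2tm1Lau/J mice that lack the inducible nitric oxide synthase gene Nos2 in every cell, were CLP and sham hearts. All animals, sham included, received isoflurane for surgery, buprenorphine and repeated saline, then ketamine with xylazine and a carotid catheter before the heart was taken. Ages and sexes were not given.

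Wild-type and knockout values come from different tables and array models, and no difference between them was tested. The wild-type values are standardised per probe set, so a difference is given in standardised units and no expression level or fold change can be read from it. The knockout values behave as log differences centred per probe set, with the base not given. Because both tables are centred, the heart identity of the samples could not be checked from the presence or absence of marker genes. In whole-organ RNA, fewer cells of a type and less RNA per cell cannot be told apart. The 5' minus 3' contrast, averaged over the control probe sets of Gapdh and beta-actin and a rough guide to RNA integrity, ran from -1.85 to 0.53 in Max Dep hearts and from -0.56 to 0.07 in Min Dep hearts, against 0.39 to 1.76 in wild-type sham hearts. In knockout hearts this contrast was -1.07, -2.06 and -0.78 in CLP replicates 1, 2 and 3, and -1.97, 0.21 and 0.98 in sham hearts. Knockout CLP replicate 1 lay between the other CLP arrays for 76% of all rows, a share that ran from 32.8% to 34.4% among the sham arrays. Its r with the mean of the other 2 CLP arrays was 0.85, while the same measure was 0.41 and 0.44 for CLP replicates 2 and 3. Whether it is an array of its own or an average of the others cannot be told from the table, so it was left out of the knockout test, and counts and correlations that include it are given without it too.

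Cells take up transferrin-bound iron through the transferrin receptor, store what they do not use in ferritin and release it through ferroportin. Iron regulatory proteins, Ireb2 among them, bind the transcripts of the receptor and of ferritin when iron is scarce, stabilising the first and holding back translation of the second. Heme oxygenase opens the heme ring and frees its iron, and metallothioneins bind zinc and copper and are induced by metals, glucocorticoids and inflammation.

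In wild-type hearts after CLP, ferritin heavy chain and transferrin receptor probe sets moved in opposite directions. A probe set of Fth1 rose by 1.98 ± 0.34 standardised units and a probe set of Tfrc fell by 2.05 ± 0.31 (SE, 6 CLP and 3 sham arrays). These 2 of 18 probe sets passed an adjusted p of 0.05 (limma, unmoderated statistics, Benjamini-Hochberg over 20393 probe sets), against 2.54% of all those tested (0.986% higher and 1.55% lower). The other 16 did not pass. Averaged by gene, 0 of the 9 genes passed, against 0.718% of 12393 gene means.

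**Figure D1:**
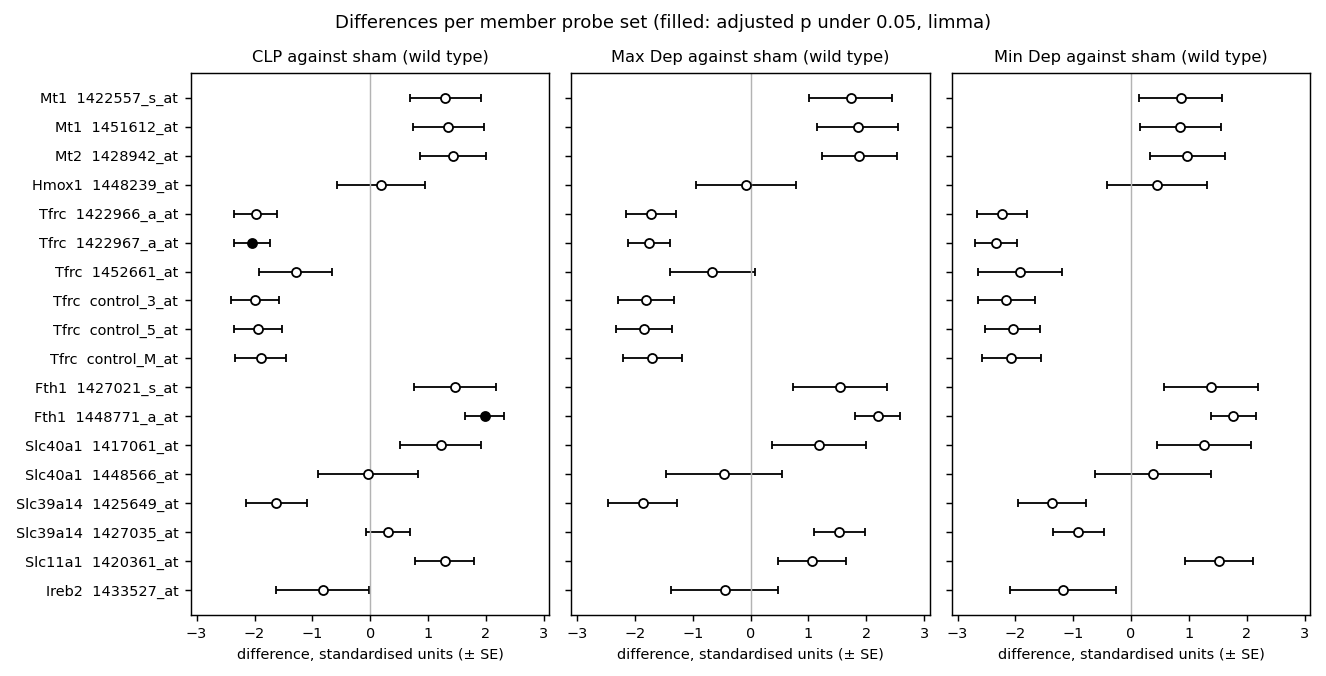
Difference of each member probe set from wild-type sham hearts, in standardised units with its SE, for all CLP hearts, for Max Dep hearts and for Min Dep hearts. Filled points passed the adjusted threshold: only 1422967_a_at of Tfrc and 1448771_a_at of Fth1 in the CLP panel. All 6 Tfrc probe sets lie left of 0 in each panel.

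Tfrc carries transferrin-bound iron into the cell and lies on chromosome 16 (GRCm38.p6, 32608896 to 32632794). Its probe set 1422967_a_at had values of -0.73, -0.29 and -0.19 in Max Dep hearts, -0.49, -0.91 and -1.56 in Min Dep hearts, and 0.86, 1.73 and 1.46 in sham hearts. Every CLP heart lay below every sham heart. The difference of -2.05 ± 0.31 had an adjusted p of 0.0404 (limma). The second transcript probe set, 1422966_a_at, read -0.59, -0.52 and -0.10 in Max Dep hearts, -0.93, -0.07 and -1.76 in Min Dep hearts, and 1.23, 1.18 and 1.52 in sham hearts. Its difference was -1.98 ± 0.37 and did not pass (limma adjusted p = 0.0549). The third, 1452661_at, read -0.04, 0.00 and 0.63 in Max Dep hearts, -0.90, 0.35 and -2.64 in Min Dep hearts, and 0.72, 0.98 and 0.88 in sham hearts. Here too the groups did not overlap, but by a narrow margin, and the difference was -1.29 ± 0.63 (limma adjusted p = 0.32).

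The 3 control probe sets of Tfrc lay lower in all CLP hearts as well. The 5' probe set read -0.50, -0.94 and -0.28 in Max Dep hearts, -0.37, -0.26 and -1.70 in Min Dep hearts, and 1.26, 1.83 and 0.72 in sham hearts. The middle one read -0.86, -0.41 and -0.05 in Max Dep hearts, -1.06, 0.28 and -1.66 in Min Dep hearts, and 1.17, 1.34 and 1.28 in sham hearts. The 3' one read -0.60, -0.80 and -0.09 in Max Dep hearts, -0.72, -0.12 and -1.71 in Min Dep hearts, and 0.72, 1.47 and 1.75 in sham hearts. Min Dep replicate 3 was the lowest heart in all 6 Tfrc probe sets. Differences were -1.94 ± 0.42 for the 5', -1.89 ± 0.44 for the middle and -1.99 ± 0.42 for the 3' probe set, with limma adjusted p-values of 0.0721, 0.0844 and 0.0695. Over the 15 pairs of Tfrc probe sets, r across the 9 wild-type arrays ran from 0.75 to 0.98 with a median of 0.92. These probe sets share arrays and a transcript, and their agreement describes 1 gene.

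Averaged over its 3 transcript probe sets, with the control probe sets left out, Tfrc differed by -1.77 ± 0.40 (limma adjusted p = 0.0962 over gene means). An exact two-sided permutation test of that mean gave p = 0.0119, the smallest that 84 splits of 6 against 3 arrays allow. This p-value and the other permutation p-values below are not adjusted for the number of genes tested. Fibroblast marker genes moved with Tfrc. All 10 of 10 were lower after CLP by gene mean, 0 passing, with a list mean of -0.47 to 0.11 in Max Dep hearts and -1.70 to 0.28 in Min Dep hearts, against 0.99 to 1.12 in sham hearts. Min Dep replicate 3, lowest for Tfrc, had the lowest fibroblast mean. Adipocyte markers were lower in 7 of 7 genes, 0 passing, with a mean of -1.33 to -0.03 in Max Dep hearts and -0.69 to -0.07 in Min Dep hearts, against -0.02 to 1.52 in sham hearts. Cardiomyocyte markers were lower in 10 of 12 genes, 0 passing, with a mean of -0.25 to 0.32 in Max Dep and -0.88 to 0.21 in Min Dep hearts, against 0.23 to 0.49 in sham hearts. Red blood cell markers, from cells that carry much Tfrc as precursors, were lower in 7 of 8 genes with 0 passing. Their mean was -0.78 to 0.80 in Max Dep and -0.55 to 0.07 in Min Dep hearts, against 0.06 to 0.79 in sham hearts. Hepatocyte markers were lower in 6 of 8 genes with 0 passing, and their mean was -0.54 to 0.13 in Max Dep and 0.12 to 0.27 in Min Dep hearts, against -0.24 to 0.31 in sham hearts. The part of these cells in the Tfrc difference was not tested.

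**Figure D2:**
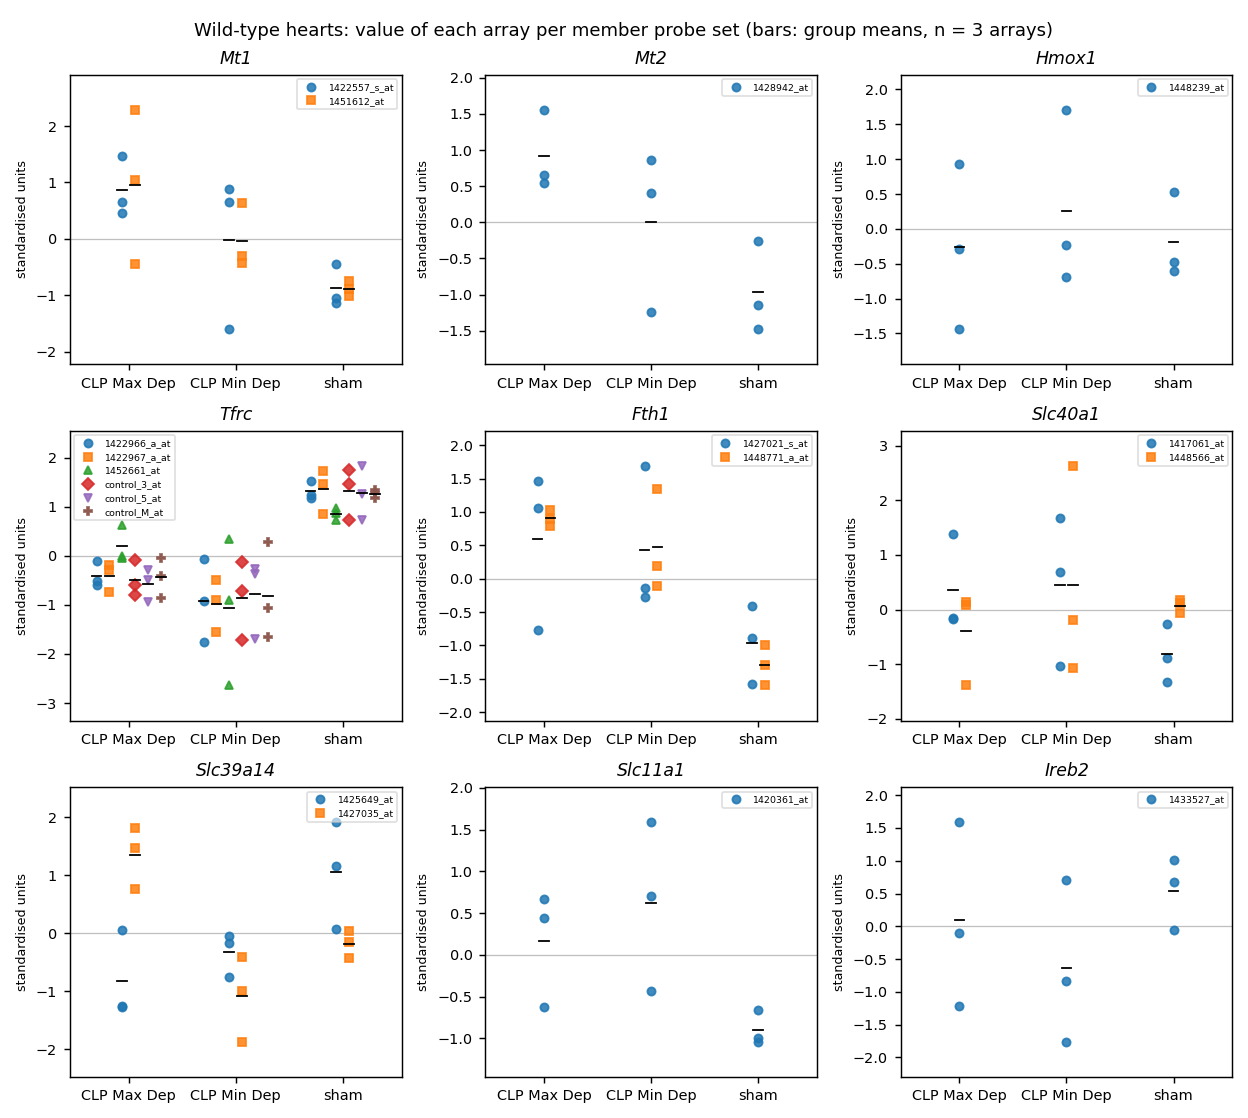
Value of each wild-type array for every member probe set, in standardised units, in CLP Max Dep, CLP Min Dep and sham hearts. Points are arrays, marker shapes are probe sets and bars are means of 3 arrays. Tfrc in sham hearts lies above all CLP hearts on each of its 6 probe sets, while Hmox1 and Ireb2 overlap across all 3 groups.

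Slc39a14 and Slc11a1 are metal transporters. Slc39a14 (ZIP14) brings zinc and iron not bound to transferrin into cells, and its 2 probe sets disagreed. The first, 1425649_at, read 0.06, -1.25 and -1.27 in Max Dep hearts, -0.04, -0.16 and -0.75 in Min Dep hearts, and 1.92, 0.07 and 1.17 in sham hearts. The CLP hearts lay below the sham hearts, with only 0.06 against 0.07 at the nearest point, and the difference was -1.62 ± 0.52 (limma adjusted p = 0.154). The second, 1427035_at, read 1.81, 0.76 and 1.47 in Max Dep hearts, -0.99, -1.87 and -0.41 in Min Dep hearts, and -0.15, -0.43 and 0.04 in sham hearts. On it the Max Dep hearts lay above and the Min Dep hearts mostly below the sham hearts, so that the difference of all CLP hearts was 0.31 ± 0.38 (limma adjusted p = 0.711). The 2 probe sets had an r of -0.24 across the 9 arrays, and no direction can be given for the gene.

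Slc11a1 (NRAMP1) moves iron and manganese out of the phagosome of macrophages. It read 0.67, -0.63 and 0.44 in Max Dep hearts, 1.59, 0.71 and -0.43 in Min Dep hearts, and -1.0, -1.04 and -0.66 in sham hearts. All CLP hearts lay above the sham hearts, narrowly so for Max Dep replicate 2. The difference was 1.29 ± 0.51 (limma adjusted p = 0.229, unadjusted exact two-sided permutation p = 0.0476). Macrophage and monocyte markers moved the same way against sham, with 15 of 15 genes higher by gene mean and 2 passing. Their mean was 0.43 to 1.13 in Max Dep hearts and 0.01 to 0.47 in Min Dep hearts, against -1.39 to -0.59 in sham hearts. Neutrophil markers were higher in 10 of 12 genes, 2 passing, with a mean of 0.12 to 0.87 in Max Dep hearts and -0.09 to 0.68 in Min Dep hearts, against -0.91 to -0.54 in sham hearts. What share of the Slc11a1 and Fth1 differences these cells carry was not tested.

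Fth1, on chromosome 19 (9980600 to 9985111), encodes the ferritin subunit that oxidises iron for storage. Its probe set 1448771_a_at read 0.89, 1.03 and 0.79 in Max Dep hearts, 0.19, -0.11 and 1.34 in Min Dep hearts, and -1.60, -1.30 and -0.99 in sham hearts. All 6 CLP hearts lay above the 3 sham hearts. It rose by 1.98 ± 0.34 (limma adjusted p = 0.0474). The other probe set, 1427021_s_at, read 1.06, -0.77 and 1.47 in Max Dep hearts, -0.28, -0.14 and 1.69 in Min Dep hearts, and -1.58, -0.41 and -0.89 in sham hearts. It overlapped with sham only through Max Dep replicate 2, and its difference of 1.47 ± 0.71 did not pass (limma adjusted p = 0.312). The gene mean differed by 1.72 ± 0.47 (limma adjusted p = 0.136, unadjusted exact two-sided permutation p = 0.0238).

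Across the 9 wild-type arrays, 1448771_a_at of Fth1 had an r of -0.90 with 1422966_a_at and -0.84 with 1422967_a_at of Tfrc. Over all pairs of an Fth1 with a Tfrc probe set, r ran from -0.94 to -0.55. These values describe arrays that include the sham and CLP groups and carry no test. Because the 2 genes differ from sham in opposite directions, a negative r follows in part from the groups. In the knockout the 2 named pairs had an r of -0.34 and -0.48, or -0.36 and -0.49 without CLP replicate 1. Over all pairs there, r ran from -0.92 to 0.31, or from -0.92 to 0.25 without it. The calls of both genes depended on single arrays. The call of 1422967_a_at of Tfrc was lost without any 1 of the 9 arrays (limma adjusted p = 0.0595 to 0.142). Without Min Dep replicate 2, 1422966_a_at and the middle control probe set of Tfrc passed in its place, with differences of -2.19 ± 0.25 and -2.16 ± 0.24 (limma adjusted p = 0.0376 for both). The Fth1 call was lost without any 1 of 7 arrays (limma adjusted p = 0.0912 to 0.147), and was kept without Min Dep replicate 2 (0.0481) or 3 (0.049).

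Slc40a1 (ferroportin) is the only known cellular iron exporter of mammals, and its 2 probe sets gave no common picture. The first, 1417061_at, read -0.17, -0.15 and 1.38 in Max Dep hearts, 0.69, -1.03 and 1.67 in Min Dep hearts, and -0.27, -0.88 and -1.32 in sham hearts. The second, 1448566_at, read -1.39, 0.08 and 0.14 in Max Dep hearts, -1.07, -0.20 and 2.63 in Min Dep hearts, and -0.07, 0.17 and 0.12 in sham hearts. Both overlapped with sham, and the sham hearts were much closer to each other on the second than the CLP hearts were. The differences were 1.22 ± 0.70 and -0.04 ± 0.87 (limma adjusted p = 0.394 and 0.985).

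Ireb2, iron regulatory protein 2, read -1.21, -0.10 and 1.59 in Max Dep hearts, -0.84, 0.70 and -1.76 in Min Dep hearts, and 0.67, 1.01 and -0.05 in sham hearts. The groups overlapped fully, and the difference of -0.82 ± 0.80 was about the size of its SE (limma adjusted p = 0.629). Hmox1, the inducible heme oxygenase, read 0.93, -1.44 and -0.29 in Max Dep hearts, 1.71, -0.69 and -0.23 in Min Dep hearts, and -0.48, 0.53 and -0.61 in sham hearts. Both the highest and the lowest of its 9 values were CLP hearts. The difference was 0.19 ± 0.76 (limma adjusted p = 0.922), so a change of Hmox1 smaller than its spread among septic hearts was not detectable with these arrays.

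Mt1 and Mt2 lie beside each other on chromosome 8 (GRCm38.p6, 94178883 to 94180327 and 94172618 to 94173567). Metal regulatory transcription factor binds metal response elements in their promoters, and the glucocorticoid receptor also acts on the locus in mouse. In RefSeq (GRCm38.p6), windows of 250 bases before to 50 after an annotated start matched 6 of the 10 genes, with 8 windows. The sequences are shown because Mt2 and 1 of the Mt1 probe sets, 1422557_s_at, shared a pattern across arrays, as given below. Capitals mark matches to the core of the metal response element, TGCACNC or TGCGCNC on either strand. For Mt1 only the last 30 bases before the start are printed, since the annotated gene span begins further upstream; for Mt2 all 250 are. The spans are chr8:94179059-94179088 for Mt1 and chr8:94172368-94172617 for Mt2, both on the plus strand.
Mt1: cccgctgTGCACACtggcgctccagggagc
Mt2: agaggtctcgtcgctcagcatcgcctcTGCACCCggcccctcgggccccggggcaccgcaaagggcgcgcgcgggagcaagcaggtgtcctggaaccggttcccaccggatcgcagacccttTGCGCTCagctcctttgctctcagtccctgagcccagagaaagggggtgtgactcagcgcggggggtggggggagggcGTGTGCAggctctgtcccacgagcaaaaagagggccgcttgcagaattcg

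The Mt1 window held 3 such matches, 1 of them upstream of the start, and the Mt2 window held 4, of which 3 lay upstream. Of 32851 RefSeq windows of this length, 25.7% held at least 1 match, 1.97% at least 3 and 0.517% at least 4. The Mt2 window also held an antioxidant response element core (TGACNNNGC, either strand, in 12.4% of windows) and the Mt1 window a glucocorticoid receptor half-site pair (ACANNNTGT, either strand, in 6.85%). Neither window held the STAT letters TTCCNGGAA, which 1.15% of windows hold. A window of Tfrc had 2 metal response matches that overlap each other, and the windows of Fth1, Slc11a1 and Ireb2 had none of the 4 motifs. These are matches of letters and not measured sites.

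**Figure D3:**
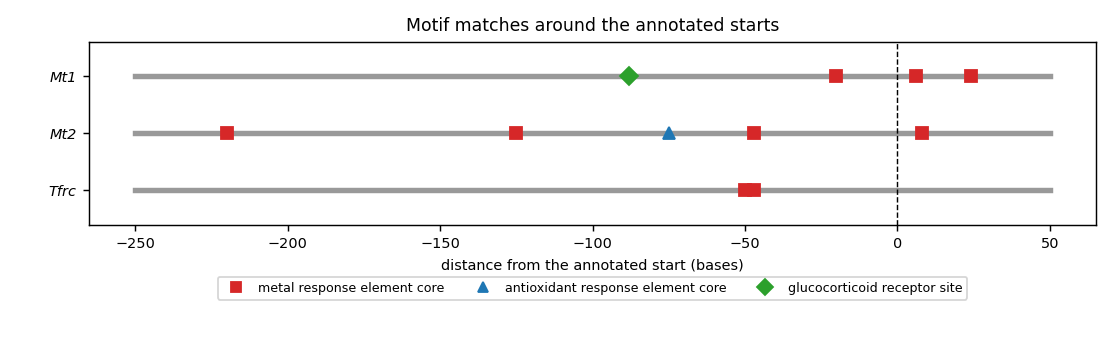
Position of motif matches in the RefSeq windows of Mt1, Mt2 and 1 window of Tfrc, as distance in bases from the annotated start. Squares are metal response element cores, the triangle an antioxidant response element core and the diamond a glucocorticoid receptor site. Mt1 has 3 squares and Mt2 has 4.

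The metallothioneins had their highest mean in Max Dep hearts and their lowest in sham hearts, and 0 of their 3 probe sets passed. Mt1 on 1422557_s_at read 1.47, 0.65 and 0.46 in Max Dep hearts, 0.89, -1.60 and 0.66 in Min Dep hearts, and -1.04, -0.44 and -1.14 in sham hearts. Mt2 read 1.56, 0.55 and 0.66 in Max Dep hearts, 0.86, -1.24 and 0.41 in Min Dep hearts, and -1.48, -0.26 and -1.14 in sham hearts. Min Dep replicate 2 lay below the sham hearts on the Mt1 probe set and among them on that of Mt2, while the other 5 CLP hearts lay above sham on both. The remaining Mt1 probe set, 1451612_at, read -0.45, 2.29 and 1.05 in Max Dep hearts, 0.63, -0.31 and -0.43 in Min Dep hearts, and -0.75, -1.02 and -0.89 in sham hearts. On this one all CLP hearts lay above sham. The differences were 1.30 ± 0.62 and 1.35 ± 0.61 for Mt1 and 1.43 ± 0.57 for Mt2 (limma adjusted p = 0.311, 0.282 and 0.233). By gene, unadjusted exact two-sided permutation p-values were 0.0714 for Mt1 and 0.0595 for Mt2.

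Mt2 and 1422557_s_at of Mt1 had an r of 0.97 across the 9 wild-type arrays and 0.96 across the 6 knockout arrays, or 0.96 without CLP replicate 1. With the other Mt1 probe set, 1451612_at, Mt2 had an r of only 0.47 in wild type. In the knockout that r was 0.85, and 0.85 without CLP replicate 1. The 2 Mt1 probe sets had an r of 0.46 with each other in wild type, and 0.84 in the knockout, or 0.85 without CLP replicate 1. The letter s in 1422557_s_at marks, in this array's naming, probes that can match several related transcripts, so how far it reads Mt1 apart from Mt2 is uncertain.

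Counted by overlap, 10 of the 18 probe sets had all CLP hearts on 1 side of the sham hearts, against 14.2% of all probe sets tested. The 3 higher ones were of Slc11a1, Fth1 and Mt1 (6.21% of all), and the 7 lower ones were the 6 of Tfrc and 1 of Slc39a14 (8% of all). Since 6 of the 10 read 1 gene, the count describes few independent genes. At an unadjusted p under 0.05 there were 9 of 18, against 20.5% of all tested. All Tfrc probe sets but 1452661_at were among these 9. The median difference of the 18 was 0.07, with 9 higher and 9 lower, beside 0.03 over all 20393.

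The calls changed with the test. With eBayes moderation 0 of 20393 probe sets passed, and both members had an adjusted p of 0.118. When the 5' to 3' control contrast entered as a covariate, 0 passed as well. The called probe sets then differed by 2.05 ± 0.51 for Fth1 and -1.93 ± 0.46 for Tfrc (limma adjusted p = 0.204 and 0.194). Some other member probe sets moved more. The other Fth1 probe set, 1427021_s_at, went from 1.47 ± 0.71 to 0.35 ± 0.77. Slc40a1 on 1417061_at went from 1.22 ± 0.70 to 0.29 ± 0.85, and Mt1 on 1451612_at from 1.35 ± 0.61 to 1.99 ± 0.81.

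Max Dep and Min Dep hearts were also set against sham hearts separately. In Max Dep hearts 0 of 18 probe sets passed (limma, against 1.24% of all tested; 10 at an unadjusted p under 0.05, against 19.8% of all; 0 with eBayes). The nearest was 1448771_a_at of Fth1, with 2.20 ± 0.39 (adjusted p = 0.0634). The Mt1 probe sets differed by 1.73 ± 0.72 and 1.85 ± 0.70 and Mt2 by 1.88 ± 0.65 (adjusted p = 0.259, 0.227 and 0.197). Tfrc probe sets lay between -1.84 ± 0.48 and -0.66 ± 0.73. In Max Dep hearts 7 probe sets lay wholly above and 7 wholly below sham, against 15.6% and 14.3% of all probe sets (29.8% on either side). The 7 higher ones were both of Mt1 and those of Mt2, Slc11a1, 1448771_a_at of Fth1, 1417061_at of Slc40a1 and 1427035_at of Slc39a14. The 7 lower ones were the 6 of Tfrc and 1425649_at of Slc39a14. All Tfrc probe sets but 1452661_at were among the 10 at an unadjusted p under 0.05.

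In Min Dep hearts 0 of 18 passed (limma, against 0.549% of all tested; 8 at an unadjusted p under 0.05, against 17.4% of all; 0 with eBayes). The 8 included all 6 Tfrc probe sets. All 6 Tfrc probe sets lay wholly below sham, between -2.34 ± 0.36 for 1422967_a_at (adjusted p = 0.063) and -1.92 ± 0.73 for 1452661_at (adjusted p = 0.258). Fth1 on 1448771_a_at differed by 1.77 ± 0.39 (adjusted p = 0.111) and Slc11a1 by 1.52 ± 0.59 (adjusted p = 0.263). The metallothionein probe sets differed by 0.85 ± 0.70 to 0.97 ± 0.65. In all, 4 probe sets lay wholly above sham and 7 wholly below, against 10.5% and 14.1% of all (24.6% on either side). Both septic groups were set against the same 3 sham hearts, so their differences are not independent of each other.

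Between Max Dep and Min Dep hearts 0 of 18 probe sets passed, and 0 of all 20393 did (limma; 1979 at an unadjusted p under 0.05, or 9.7%; 0 with eBayes). Slc39a14 on 1427035_at was the only member at an unadjusted p under 0.05. Its difference was 2.44 ± 0.44 (adjusted p = 0.265), and all 3 Max Dep hearts lay above all 3 Min Dep hearts, as did 8.96% of all probe sets. The same gene on 1425649_at differed by -0.50 ± 0.59. All 3 metallothionein probe sets were higher in Max Dep hearts on average, by 0.87 ± 0.72, 1.00 ± 0.70 and 0.91 ± 0.65, with the groups overlapping. All 6 Tfrc probe sets were also higher on average, by 0.20 ± 0.48 to 1.26 ± 0.73. The macrophage list mean was 0.43 to 1.13 in Max Dep hearts, against 0.01 to 0.47 in Min Dep hearts. Slc11a1 went the other way on average, by -0.46 ± 0.59, with the groups overlapping. None of these member differences passed after adjustment over the 20393 probe sets tested.

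In iNOS KO hearts, CLP replicates 2 and 3 were tested against 3 sham hearts, and 0 of 18 probe sets passed (limma with eBayes; 0 of 20393 in all; 3 members at an unadjusted p under 0.05, against 11.1% of all tested; 0 with unmoderated statistics). With all 6 arrays 240 probe sets passed, and 0 of them were members. Values below are in log units and list CLP replicates 1, 2 and 3 in that order.

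Mt2 read 1.68, 4.82 and 0.99 in CLP hearts and -0.47, 0.96 and 0.00 in sham hearts. The groups just failed to overlap, with CLP replicate 2 far above the rest, and the difference was 2.74 ± 1.14 (limma adjusted p = 0.457). Mt1 on 1422557_s_at read 1.20, 4.46 and 0.20 in CLP hearts and 0.02, 1.28 and -0.54 in sham hearts, with a difference of 2.08 ± 1.28 (limma adjusted p = 0.631). On 1451612_at it read 0.74, 2.82 and -0.41 in CLP hearts and 0.11, -1.22 and -0.92 in sham hearts. The difference there was 1.88 ± 1.01 (limma adjusted p = 0.572), and both Mt1 probe sets overlapped with sham. Hmox1 read 0.79, 2.94 and -0.74 in CLP hearts and 0.74, -0.25 and -0.09 in sham hearts. Its difference was 0.96 ± 1.08 (limma adjusted p = 0.828). CLP replicate 2 was the highest of the 6 knockout arrays on the probe sets of Mt1, Mt2 and Hmox1. Its 5' minus 3' control contrast of -2.06 was the lowest of the 6, with -1.97 in sham replicate 1.

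Slc11a1 read 1.25, 2.86 and 0.60 in CLP hearts and -0.07, 0.00 and -0.62 in sham hearts, a difference of 1.96 ± 0.74 without overlap (limma adjusted p = 0.403). Slc39a14 on 1427035_at read 1.17, 2.91 and 0.78 in CLP hearts and -0.81, -0.84 and 0.04 in sham hearts, a difference of 2.38 ± 0.74 (limma adjusted p = 0.303). On 1425649_at Slc39a14 overlapped with sham and differed by 0.32 ± 0.47 (limma adjusted p = 0.877). Macrophage markers were higher in 13 of 15 genes here, 0 passing, with a mean of 1.41, 2.40 and 1.79 in CLP hearts, against -0.72 to 0.20 in sham hearts. Neutrophil markers were higher in 11 of 12 genes, 0 passing. Their mean was 1.12, 2.31 and 1.20 in CLP hearts, against -0.51 to -0.10 in sham hearts. Again CLP replicate 2 had the highest value, in both lists. The part of these cells in the Slc11a1 difference was not tested.

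Fth1 on 1448771_a_at read 0.47, 0.77 and 0.66 in CLP hearts and -0.97, -0.50 and 0.00 in sham hearts, a difference of 1.20 ± 0.49 without overlap (limma adjusted p = 0.449). The other Fth1 probe set, 1427021_s_at, read 0.58, 0.04 and 1.91 in CLP hearts and -1.99, 0.00 and 0.44 in sham hearts. That probe set was also higher on average, but it overlapped with sham and did not pass (limma adjusted p = 0.638). Slc40a1 on 1417061_at read -0.82, -0.61 and -1.67 in CLP hearts and 1.01, 1.30 and -0.46 in sham hearts. It was the only member probe set that lay wholly below sham in the knockout, with a difference of -1.76 ± 0.70 (limma adjusted p = 0.436). In wild type the same probe set had a positive difference, and whether the genotypes differ was not tested because they sit in separate tables. The other Slc40a1 probe set, 1448566_at, overlapped with sham in the knockout and differed by -0.33 ± 0.51 (limma adjusted p = 0.884).

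Tfrc showed no common direction in the knockout. Its 6 probe sets differed by -0.32 ± 0.62 to 0.66 ± 0.56 log units, and all overlapped with sham. On 1422967_a_at it read -0.03, 0.38 and -0.71 in CLP hearts and 0.95, -0.29 and -0.18 in sham hearts. Between pairs of these probe sets, r ran from -0.79 to 0.95 with a median of 0.51 across the 6 arrays, and from -0.80 to 0.95 with a median of 0.54 without CLP replicate 1. Fibroblast markers, lower beside Tfrc in wild type, were lower in 8 and higher in 2 of 10 genes here, 0 passing. Their list mean was -0.66, -0.27 and -1.46 in CLP hearts, against 0.27 to 0.90 in sham hearts. The part of these cells in the Tfrc values was not tested. Ireb2 read 0.18, 0.43 and 0.00 in CLP hearts and -0.44, 1.60 and -0.89 in sham hearts, and differed by 0.13 ± 0.82 (limma adjusted p = 0.979). In all, 4 probe sets lay wholly above sham (those of Mt2 and Slc11a1, 1448771_a_at of Fth1 and 1427035_at of Slc39a14) and 1 wholly below, against 14.2% and 12.3% of all probe sets (26.5% on either side). Without CLP replicate 1 these were the same 5 probe sets, against 14.5% above and 13.4% below over all probe sets (27.9% on either side).

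**Figure D4:**
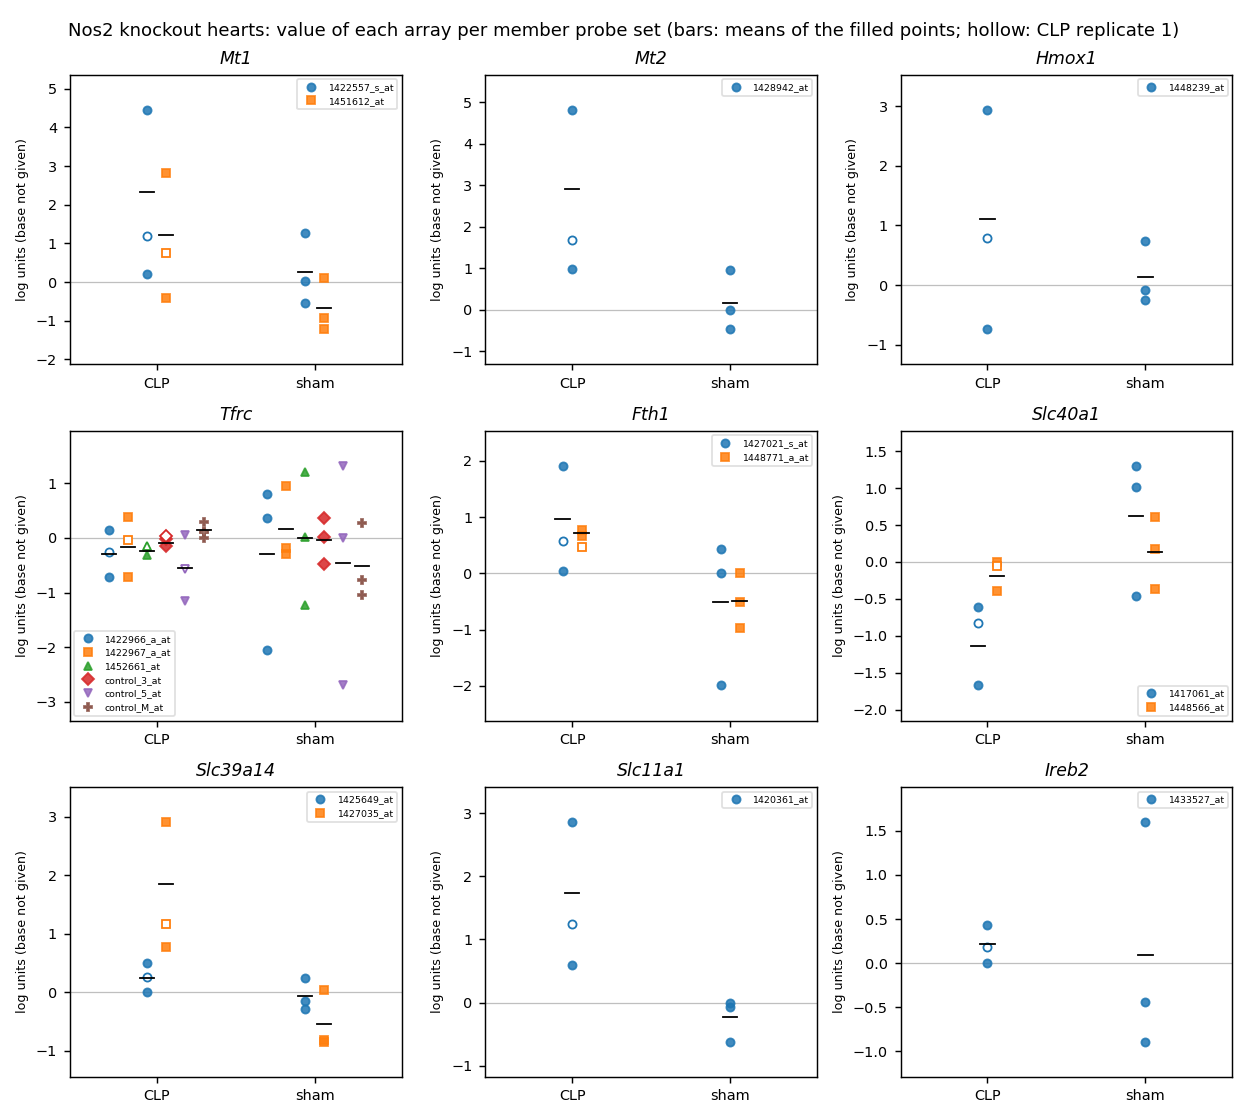
Value of each knockout array for every member probe set, in log units of unstated base, in iNOS KO CLP and sham hearts. Points are arrays, hollow points are CLP replicate 1 (left out of the test), marker shapes are probe sets and bars are means of the filled points (2 CLP and 3 sham arrays). Slc11a1 and Mt2 in CLP hearts lie above sham hearts, with CLP replicate 2 far above the others.

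Other genes of iron, heme and metal handling were read in lists. Of 32 probe sets of 16 iron uptake, storage and export genes, 0 passed in wild-type CLP hearts (limma; 13 at an unadjusted p under 0.05, a level that 20.5% of all probe sets reached; median difference -0.04). Ncoa4, the receptor that delivers ferritin to autophagy, had the smallest p. It read -0.56, -1.29 and -0.30 in Max Dep hearts, -0.44, -0.33 and -1.13 in Min Dep hearts, and 1.57, 1.79 and 0.45 in sham hearts on 1450006_at, a difference of -1.94 ± 0.40 (adjusted p = 0.0662). On its other probe set, 1420808_at, it differed by -0.96 ± 0.42 (adjusted p = 0.266), and the 2 probe sets disagreed in Max Dep hearts, with 0.01 ± 0.48 on 1420808_at and -1.99 ± 0.46 on 1450006_at. Steap3, the reductase that readies endosomal iron for export to the cytosol, was next, with -1.94 ± 0.44 on 1453498_x_at (adjusted p = 0.0796) and -1.43 ± 0.67 and -1.53 ± 0.49 on its other probe sets (adjusted p = 0.295 and 0.16).

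Heme genes had 28 probe sets for 19 genes, with 0 passing (limma; 10 under an unadjusted p of 0.05, beside the same 20.5% of all; median 0.14). Alas1, the rate-limiting enzyme of heme synthesis outside red cells, differed by -1.87 ± 0.41 on 1424126_at and -1.72 ± 0.48 on 1455282_x_at (adjusted p = 0.0762 and 0.119). Abcb10, a mitochondrial transporter tied to heme synthesis, differed by -1.40 ± 0.70 to -1.84 ± 0.46 over its 3 probe sets, and its gene mean fell by 1.66 ± 0.23 (limma adjusted p = 0.0499).

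Iron-sulfur cluster assembly had 12 probe sets of 8 genes, of which 2 fell and 0 rose (limma, median -0.71), beside 2.54% of all tested that passed. At an unadjusted p under 0.05 there were 4, against 20.5% of all. Fdx1, a mitochondrial ferredoxin, read -0.08, -1.40 and -0.36 in Max Dep hearts, -1.10, -0.30 and -0.91 in Min Dep hearts, and 1.04, 1.67 and 1.40 in sham hearts, and fell by 2.06 ± 0.36 (adjusted p = 0.0477). Nfs1, the cysteine desulfurase that supplies the sulfur, fell by 2.05 ± 0.32 on 1431431_a_at (adjusted p = 0.0407), while 1416373_at differed by -0.74 ± 0.86. Among 29 zinc and copper probe sets of 20 genes, 1 fell and 0 rose (limma, median -0.13), beside the same 2.54% of all. At an unadjusted p under 0.05 there were 5, against the same 20.5%. The 1 that fell belonged to Slc30a9, of the zinc transporter family, which read -0.01, -0.12 and -0.10 in Max Dep hearts, -1.22, -0.43 and -1.85 in Min Dep hearts, and 1.30, 1.37 and 1.10 in sham hearts, a fall of 1.88 ± 0.30 (adjusted p = 0.0415).

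The NRF2 and BACH1 axis controls Hmox1, ferritin and other antioxidant genes. Of its 22 probe sets of 12 genes, 1 fell and 0 rose (limma, median 0.10), beside 2.54% of all tested that passed. At an unadjusted p under 0.05 there were 4, against 20.5% of all. The probe set that fell was of Nfe2l2, which encodes NRF2 itself. It read -0.34, -0.05 and -0.71 in Max Dep hearts, -1.42, -1.19 and -0.09 in Min Dep hearts, and 1.28, 1.21 and 1.51 in sham hearts, and fell by 1.97 ± 0.33 (adjusted p = 0.0442). No probe set of the 5 lists passed in any other comparison. In all, 4 of 123 listed probe sets passed in wild-type CLP hearts, all of them lower. Of all tested, 2.54% passed, 1.55% lower and 0.986% higher.

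The genes whose wild-type pattern was most like that of the members were taken by Pearson r over 9 arrays, with no test. For the mean of Mt1 and Mt2 they were Notch1 (r = 0.968), Set (0.963) and Gna11 (0.958). Across the 6 knockout arrays the r of these 3 was -0.11, 0.76 and -0.23, and without CLP replicate 1 it was -0.09, 0.75 and -0.21. For Hmox1 they were Ssx2ip (r = 0.961), Ro60 (0.951) and Slc35b4 (0.947), with -0.08, -0.36 and 0.26 in the knockout and -0.06, -0.36 and 0.25 without CLP replicate 1. For the mean of the 6 Tfrc probe sets they were Idh3a (r = 0.987), a subunit of mitochondrial isocitrate dehydrogenase, Gas1 (0.984) and Cycs (0.984), which encodes cytochrome c. In the knockout their r with Tfrc was -0.78, 0.39 and -0.71, or -0.78, 0.44 and -0.71 without CLP replicate 1.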

How the data were processed

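Total RNA of 15 mouse hearts was read on short oligonucleotide arrays. The deposited values are a score in each of 2 tables of 22690 probe sets; the software and background correction are not given in the sources used here. Once 1 linear rescaling per array was reversed, wild-type rows all had mean 0 and SD 1.000, which shows that table to be standardised. The knockout scores deposited by the authors run from -7.78 to 8.18, and 54.2% of probe sets hold an array at exactly 0. No intensities were used, so dim probe sets could not be filtered, and precision is limited by how many arrays each group has.

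Probe sets paired with exactly 1 gene in the platform annotation (20393, of which 13 are control probe sets) were fitted by lmFit (limma 3.58.1, R 4.3.3), with Benjamini-Hochberg adjustment and a threshold of 0.05. The 9 wild-type arrays shared 1 fit with unmoderated statistics on 6 residual degrees of freedom, since moderation pulls the spread of rows scaled to equal SD towards a common value. Knockout arrays were tested with eBayes. Nothing in the labels says whether arrays of a group share a litter or a day, so p-values measure the spread between these arrays. Replicate numbers only name arrays and pair nothing.

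All member probe sets were described. Of each other list, genes that passed were named, or the 2 with the smallest p where none passed. The members, lists, tests and motifs were chosen with earlier results of these data known. Chromosome positions and promoter windows come from RefSeq on GRCm38.p6. Alternatives covered the unit of the test, moderation, the arrays fitted, array standardisation, the 5' minus 3' covariate, the probe sets adjusted over and leaving out arrays; fitting the 6 septic arrays as 1 group and counting knockout overlap without CLP replicate 1 were chosen after seeing the data.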

Additional observations from a re-analysis of the deposited data

Results flagged for a closer look

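Mt1 on 1422557_s_at had a value of -1.60 in wild-type Min Dep replicate 2, far below the other 5 septic wild-type arrays, which ran from 0.46 to 1.47. Its gap to the nearest of them was 0.670 of the range of the 6 arrays, above Dixon's critical value for 6 values. The same array read -1.24 for Mt2 and -0.31 for the other Mt1 probe set. Of 18 member probe sets examined in this way, 1 stood out, and chance alone gives about 1 in 20.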

How the results depend on the processing

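Of 1170 recomputed member differences from 90 results, 1097 kept their direction and side of the threshold, 49 turned sign, 20 no longer passed and 4 newly passed. Only 2 of the 90 results had passed at first, so the others had no call to lose. The 20 that no longer passed were all recomputations of those 2. The count of 2 member probe sets in wild-type CLP hearts was 0 by gene mean, with eBayes and with the 5' minus 3' covariate, and 3 with the 6 septic arrays as 1 group. It ranged from 0 to 3 when single arrays were left out: 0 without any sham array, any Max Dep array or Min Dep replicate 1, 3 without Min Dep replicate 2 and 1 without Min Dep replicate 3. In Max Dep hearts 1 member probe set, of Fth1, passed with the array standardisation undone. In the remaining comparisons 0 members passed under each alternative run. Over all genes the wild-type CLP count of 518 was 0 with eBayes or the covariate, 89 gene means, and 0 to 452 with an array left out. No signal over background was available, and between 3 Max Dep and 3 Min Dep arrays a member difference of 2.44 ± 0.44 standardised units, of Slc39a14 1427035_at, did not pass.

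With the covariate, Hmox1 turned to -0.38 in CLP and -0.0023 in Min Dep hearts against sham, Fth1 1427021_s_at to -0.26 between Max Dep and Min Dep hearts, and in the knockout Tfrc 1422966_a_at to -0.46 and its 3' control probe set to 0.01. With an array left out, 24 results turned sign at some point, none of which had passed, and the cause was not tested. Against sham, the ranges in CLP hearts were -0.18 to 0.55 for Hmox1 and -0.59 to 0.34 for Slc40a1 1448566_at. In Max Dep hearts they were -0.68 to 0.51 for Hmox1, -1.20 to 0.20 for Ireb2 and -0.73 to 0.04 for Slc40a1 1448566_at, and in Min Dep hearts -0.27 to 0.93 for Hmox1 and -0.71 to 1.14 for Slc40a1 1448566_at. Between Max Dep and Min Dep hearts they were -0.28 to 0.85 for Fth1 1427021_s_at, -1.13 to 0.19 for Hmox1, -0.02 to 1.39 for Ireb2, -0.99 to 0.02 for Slc11a1, -0.83 to 0.53 and -1.60 to 0.24 for Slc40a1 1417061_at and 1448566_at, and -0.08 to 0.72, -0.26 to 0.46 and -0.05 to 0.92 for the 3', 5' and middle Tfrc controls. In the knockout they were -0.87 to 2.80 for Hmox1, -0.36 to 0.88 for Ireb2, -0.05 to 4.21 for Mt1 1422557_s_at, -0.87 to 0.56, -0.87 to 0.23 and -0.86 to 0.35 for Tfrc 1422966_a_at, 1422967_a_at and 1452661_at, and -0.27 to 0.15 and -1.21 to 0.80 for its 3' and 5' controls.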
